A study of Mus musculus with 96 samples.

Results

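Accessible active enhancers of mouse embryonic stem (ES) cells were followed while GATA6 converted the cells towards primitive endoderm (PrE), the extra-embryonic lineage that lines the blastocyst cavity. They are the 1285 of 42403 GATA6 binding regions (3.03%) that the authors classed both as active enhancers from histone marks of undifferentiated ES cells and as accessible before induction. Beyond the GATA6 peaks that define all regions, neither class used a value of the factors followed here. Binding was measured by ChIP-seq, the sequencing of DNA that an antibody pulls down together with the protein fixed onto it. The cells were KH2 ES cells of C57BL/6 x 129/Sv background carrying a doxycycline (Dox)-inducible Gata6 cassette, grown with LIF on mouse embryonic fibroblast feeders. They were collected before Dox and at 5 times in 1 µg/mL Dox (8 h, 16 h, day 1, day 2 and day 4), with antibodies against GATA6, OCT4, SOX2, ESRRB and SOX17 and as input chromatin. The same cassette cells received Oct4 or control siRNA together with 1 µg/mL Dox for 48 h, in a single clone. Of the factors, only GATA6 and SOX17 were profiled in them. Input chromatin of both siRNAs was sequenced as well but is not used here. Extra-embryonic endoderm (XEN) cells, a PrE-like line from the CD1 strain (X10), were grown without LIF and were not profiled for ESRRB, so that strain and cell type cannot be told apart between them and the ES cells.

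Each of the 45 conditions used here has a single pooled value per region, in reads per M reads of the library (RPM), for which the labels list 1 to 3 libraries. No spread between libraries can therefore be given, no difference given here has a replicate check, and no test was run; the quartiles below describe regions, not cultures. Library depths, read from the steps between the lowest values, ran from 5.42 to 69.4 M reads over the 40 columns that could be resolved. GATA6 before Dox has 1 library, of 6.12 M reads. ESRRB at 8 h and SOX17 at 16 h are labelled with 2 libraries each, but their values showed a single depth step. A change in RPM can come from more binding per cell or from more cells with binding, and these cannot be told apart in bulk chromatin. RPM is also scaled to library size, so it gives a share of the reads and not an absolute amount of binding. The enhancers had a median width of 616 bp (all regions, 524 bp) and a median input before Dox of 0.779 RPM (all regions, 0.448 RPM), and input was above that of the other regions on 20 of 20 chromosomes at every time. A higher level at these enhancers than elsewhere therefore comes with wider regions and higher input, whose part in it was not tested.

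An enhancer is a stretch of DNA away from a promoter where transcription factors gather and from which they raise the transcription of a gene. In ES cells, active enhancers are held open by OCT4 and SOX2, which often bind side by side on a composite motif, and by ESRRB, an orphan nuclear receptor, and together these pluripotency transcription factors (PTFs) keep the self-renewal genes on. GATA6 is a zinc finger factor that recognises GATA sequences, can bind nucleosomal DNA as a pioneer factor and specifies PrE, in which SOX17, a relative of SOX2, is also expressed.

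Sequence around the GATA6 summit is shown for 8 enhancers, the first of each set of extremes described below and 3 near named genes, to show which motifs lie under the sites with the most extreme values. The windows are 300 bases of the plus strand of mm10, centred on the summit. Capitals mark the best full-length match to the authors' GATA6, OCT:SOX, SOX17 and ESRRB motifs, where it fell inside the window, and every match on either strand to 4 short strings, namely AGATAA for GATA factors, the octamer ATGCAAAT, CATTGT for SOX factors and AAGGTCA for ESRRB.
Plekha4, chr7:45551580-45551879: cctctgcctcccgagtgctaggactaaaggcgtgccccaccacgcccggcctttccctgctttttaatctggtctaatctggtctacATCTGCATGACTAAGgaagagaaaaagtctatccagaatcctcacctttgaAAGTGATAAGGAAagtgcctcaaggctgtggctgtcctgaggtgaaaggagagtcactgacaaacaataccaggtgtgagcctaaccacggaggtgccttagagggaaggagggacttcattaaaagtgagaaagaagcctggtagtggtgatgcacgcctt
Slc20a1, chr2:129245926-129246225: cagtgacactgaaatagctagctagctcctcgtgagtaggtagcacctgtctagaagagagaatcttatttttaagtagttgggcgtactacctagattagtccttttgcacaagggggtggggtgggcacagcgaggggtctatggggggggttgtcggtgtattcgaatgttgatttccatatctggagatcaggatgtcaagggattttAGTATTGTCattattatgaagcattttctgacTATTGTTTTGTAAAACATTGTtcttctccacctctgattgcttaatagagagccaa
Ubald2, chr11:116433819-116434118: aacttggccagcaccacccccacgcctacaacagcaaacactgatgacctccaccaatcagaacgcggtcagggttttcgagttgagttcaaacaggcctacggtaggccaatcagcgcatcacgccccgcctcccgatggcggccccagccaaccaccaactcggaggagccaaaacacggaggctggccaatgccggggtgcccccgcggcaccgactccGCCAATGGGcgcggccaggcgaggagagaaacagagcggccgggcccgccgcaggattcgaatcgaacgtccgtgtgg
Cnot2, chr10:116562216-116562515: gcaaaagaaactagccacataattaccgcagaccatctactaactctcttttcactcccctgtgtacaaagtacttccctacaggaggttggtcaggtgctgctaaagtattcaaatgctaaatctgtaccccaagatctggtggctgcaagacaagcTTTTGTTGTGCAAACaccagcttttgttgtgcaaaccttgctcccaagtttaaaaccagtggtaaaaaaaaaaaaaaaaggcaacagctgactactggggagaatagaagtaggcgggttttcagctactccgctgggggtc
Gzmm, chr10:79687596-79687895: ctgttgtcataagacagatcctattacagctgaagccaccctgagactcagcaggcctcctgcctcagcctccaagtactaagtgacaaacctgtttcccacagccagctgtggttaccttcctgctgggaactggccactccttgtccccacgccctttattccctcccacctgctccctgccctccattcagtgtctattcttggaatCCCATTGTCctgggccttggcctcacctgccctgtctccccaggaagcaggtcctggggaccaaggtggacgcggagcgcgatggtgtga
Klf4, chr4:55464299-55464598: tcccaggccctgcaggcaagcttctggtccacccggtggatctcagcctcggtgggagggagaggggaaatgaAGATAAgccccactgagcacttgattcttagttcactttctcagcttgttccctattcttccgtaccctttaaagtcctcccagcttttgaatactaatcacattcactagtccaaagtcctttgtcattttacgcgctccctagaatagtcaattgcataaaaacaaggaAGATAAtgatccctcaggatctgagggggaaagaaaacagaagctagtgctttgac
Il6st, chr13:112439399-112439698: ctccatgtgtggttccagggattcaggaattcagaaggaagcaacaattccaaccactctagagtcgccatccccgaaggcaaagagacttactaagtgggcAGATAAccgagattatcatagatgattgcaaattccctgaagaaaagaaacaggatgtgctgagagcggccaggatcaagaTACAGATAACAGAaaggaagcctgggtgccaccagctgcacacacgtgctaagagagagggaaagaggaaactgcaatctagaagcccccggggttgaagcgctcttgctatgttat
Tcf7l1, chr6:72795088-72795387: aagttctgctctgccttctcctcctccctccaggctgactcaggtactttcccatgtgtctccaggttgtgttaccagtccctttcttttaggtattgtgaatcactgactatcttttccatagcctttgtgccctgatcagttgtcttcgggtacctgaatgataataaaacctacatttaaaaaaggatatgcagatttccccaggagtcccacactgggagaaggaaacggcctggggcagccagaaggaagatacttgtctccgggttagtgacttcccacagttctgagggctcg
The window near Plekha4, where GATA6 was highest at 8 h, held no AGATAA string, but the best GATA6 match of its region, of the middle score class, lay 6 bp from the summit at positions 139 to 151. Its other capitals, at positions 88 to 102, are an OCT:SOX match of the high class on the minus strand. The window near Cnot2, where OCT4 was highest before Dox, held an OCT:SOX match 15 bp from the summit whose letters occurred in 2 copies, of which the capitals mark the first. The window near Slc20a1, with the largest fall of GATA6, held OCT:SOX and SOX17 matches, a CATTGT string and no marked GATA match. The window near Ubald2, with the largest rise, held only a SOX17 match, and that near Gzmm, with the largest rise of OCT4, a SOX17 match of the high class. The windows near Klf4 and Il6st held 2 GATA strings each. That near Tcf7l1 held none of the marked matches or strings, although its region had GATA6, SOX17 and OCT:SOX motifs of the middle score class. Weaker or other forms of a motif were not marked in any window.

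The GATA6 signal at these enhancers was highest at the first time measured after induction and was then lower at most of them. The median over the 1285 enhancers was 0.817 RPM before Dox (range 0.163 to 5.55). The medians of the 5 times in Dox were, in order, 3.59 (0.232 to 41.0), 2.37, 1.83, 1.64 and 1.14 RPM (0.113 to 21.1), and XEN cells had 0.736 RPM (0.0995 to 31.1). The median was at percentile 77.5 of all regions at 8 h and at percentile 45.5 at day 4. GATA6 was above the other regions of the same chromosome on 20 of 20 chromosomes from before Dox to day 2, on 6 of 20 at day 4 and on 1 of 20 in XEN cells. Over all regions the median was 1.49 RPM at 8 h and 1.29 at day 4. It went from 3.71 to 1.63 at the less accessible active enhancers and from 2.01 to 2.85 at accessible promoters.

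**Figure D1:**
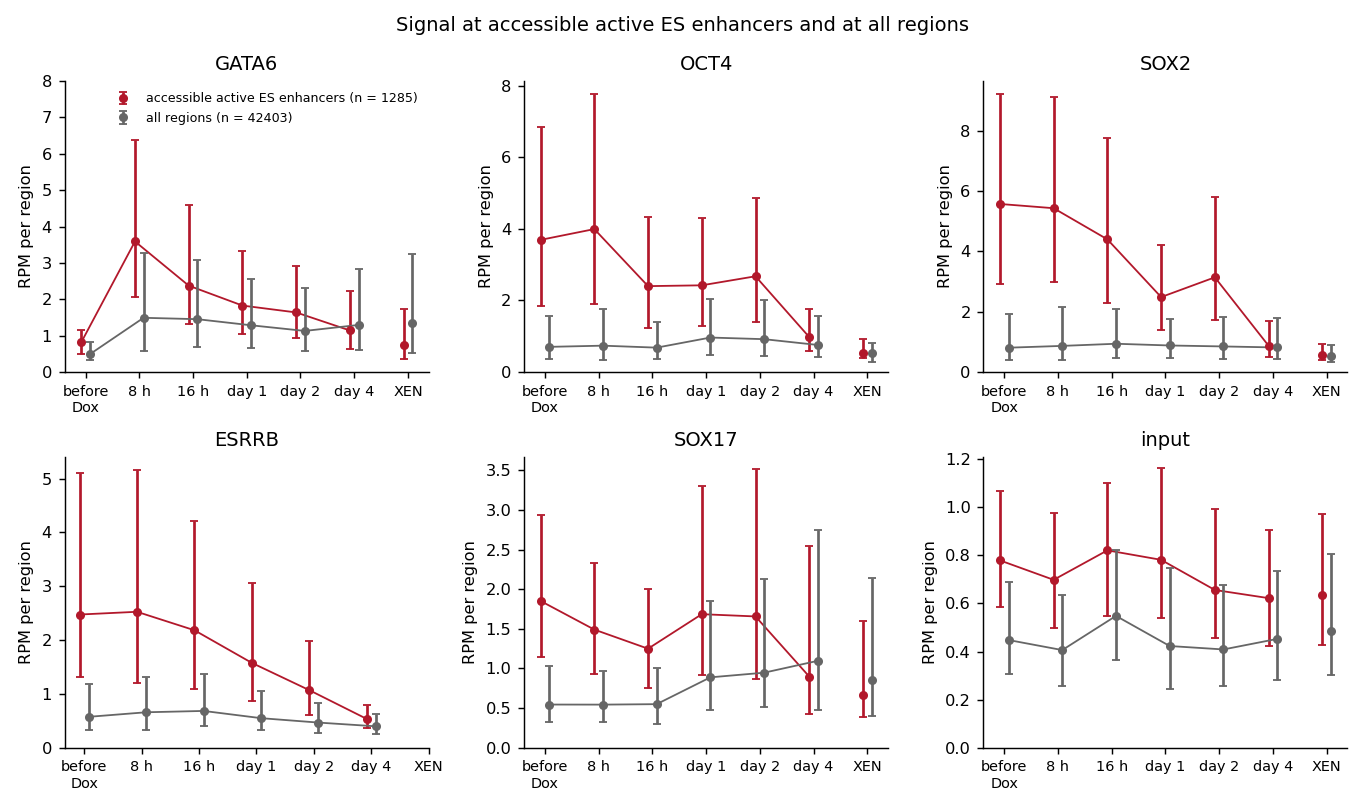
Median RPM (points) and quartiles over regions (bars) at each time of GATA6 induction and in XEN cells, for the 5 factors and input, at the 1285 accessible active ES enhancers (red) and at all 42403 regions (grey); lines join the times of the induction. GATA6 at the enhancers peaks at 3.59 RPM at 8 h and ends at 1.14 at day 4, below the 1.29 of all regions, while OCT4, SOX2 and ESRRB start far above all regions and end close to them.

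Counted by enhancer, 1111 (86.5%) had GATA6 more than 2-fold higher at 8 h than before Dox, against 60.4% of all regions. The share was 85.6% at the less accessible active enhancers and 63.8% at accessible promoters. A filter on low values kept regions whose higher value of both conditions was above its median over all regions. Among these the share was 93.76% of the enhancers and 93.78% of all regions. Folds were taken on log2 of RPM plus a pseudocount of 0.164 to 0.195 RPM, by factor. From 8 h to day 4 GATA6 was more than 2-fold lower at 901 enhancers (70.1%), against 34.8% of all regions, 53.6% of the less accessible active enhancers and 19.4% of accessible promoters. Only 56 (4.36%) were more than 2-fold higher at day 4, against 30.9% of all regions. The 8 h sample held the highest GATA6 value of the time course at 894 enhancers (69.6%; all regions, 32.8%) and the day 4 sample at 131 (10.2%; all regions, 37.2%). GATA6 was above 2 times the input of the same time at 1215 enhancers at 8 h (94.6%, all regions 71.0%). At day 4 it still was at 607 (47.2%, all regions 67.9%). Between day 4 and XEN cells GATA6 was a further 2-fold lower at 241 enhancers (18.8%; all regions, 11.7%). With a pseudocount 10 times larger the rise counted 671 enhancers and the fall to day 4 counted 497. Input did not follow this course, with medians of 0.698 RPM at 8 h and 0.622 at day 4.

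**Figure D2:**
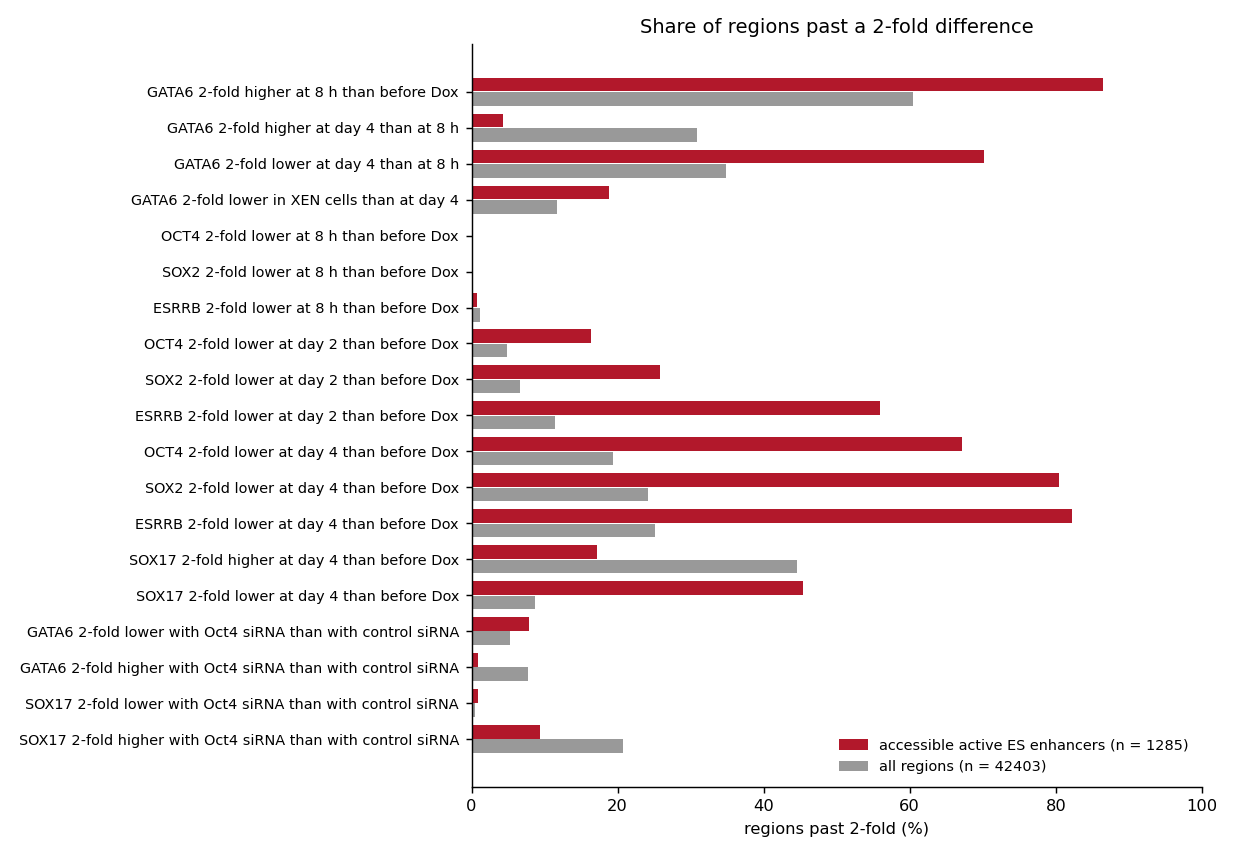
Share of regions past a 2-fold difference (x axis, percent) in each comparison, at the 1285 accessible active ES enhancers (red) and at all 42403 regions (grey). The falls of OCT4, SOX2 and ESRRB to day 4 have longer bars at the enhancers than over all regions, with 82.3% against 25.2% for ESRRB, and the rise of SOX17 to day 4 has a shorter one, with 17.2% against 44.5%.

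The class also held regions close to start sites. The summits lay in introns in 535 cases, between genes in 531, in exons in 31 and within 1 kb of an annotated start site in 188 (14.6%; all regions, 12.4%). GATA6 was 2-fold higher at 8 h than before Dox in 130 of those 188 (69.1%) and in 981 of the 1097 farther away (89.4%). Of the 188, GATA6 was 2-fold higher at day 4 than at 8 h in 33 (17.6%), and of the 1097 in 23 (2.10%). The fall of GATA6 was seen in 86 of the 188 (45.7%) and in 815 of the 1097 (74.3%). The median distance to the nearest start of a protein-coding gene was 17.0 kb, against 22.1 kb for all regions.

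OCT4, SOX2 and ESRRB occupied these enhancers before Dox and were still there at 8 h, when GATA6 was at its highest. OCT4 had a median of 3.69 RPM before Dox (0.209 to 30.5), then 3.99, 2.40, 2.42, 2.67 and 0.976 RPM (0.0785 to 21.7) over the 5 times, and 0.533 RPM in XEN cells. SOX2 started from 5.58 RPM (0.278 to 32.3), went through 5.43, 4.40, 2.49, 3.14 and 0.873 RPM (0.0692 to 31.8), and was 0.578 RPM in XEN cells. ESRRB started from 2.48 RPM (0.229 to 28.6) and went through 2.53, 2.18, 1.58, 1.07 and 0.535 RPM (0.0855 to 2.97). All 3 factors were thus lowest at the last time of the induction. Each started far above the median of all regions, which was 0.703 RPM for OCT4, 0.808 for SOX2 and 0.574 for ESRRB, and above that of the less accessible active enhancers, at 1.99, 2.73 and 1.74 RPM. The OCT4 median stood 4.35 times over input before Dox, that of SOX2 7.01 times and that of ESRRB 3.002 times, taking the median of the ratio at each enhancer, and by day 4 these ratios were 1.62, 1.46 and 0.845.

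At 8 h the signal of a PTF was 2-fold lower at almost no enhancer, and at few of all regions. OCT4 was 2-fold lower than before Dox at 1 of 1285 (all regions, 0.111%), SOX2 at 0 (all regions, 0.0330%) and ESRRB at 9 (all regions, 1.14%). OCT4 had a higher value at 8 h than before Dox at 69.3% of the enhancers and at 60.4% of all regions, with median log2 differences of 0.11 and 0.08. The 8 h sample held the highest OCT4 value of the time course at 705 enhancers (54.9%; all regions, 24.4%).

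The signal of the 3 PTFs then fell, in an order that changed with the time looked at. Each time of a factor is 1 pooled column, so a change at 1 time cannot be told from a difference between libraries. SOX2 was the first to reach a median drop of 2-fold, with a log2 difference from before Dox of -1.03 at day 1. OCT4 then stood at -0.38 and ESRRB at -0.58. Over all regions the OCT4 median went from 0.703 RPM before Dox to 0.963 at day 1. That of SOX2 went from 0.808 to 0.881 and that of ESRRB from 0.574 to 0.549. The SOX2 median at the enhancers was 2.49 RPM at day 1 and 3.14 at day 2. SOX2 was higher at day 2 than at day 1 at 77.7% of the enhancers, 51.2% of all regions and 81.5% of accessible promoters. ESRRB fell without such a step, and at day 2 it was 2-fold lower at 719 enhancers (56.0%; all regions, 11.4%), against 331 for SOX2 (25.8%; all regions, 6.70%) and 211 for OCT4 (16.4%; all regions, 4.86%). Relative to the median change of all regions at day 2, which was -0.28 on the log2 scale for ESRRB, 0.00 for SOX2 and 0.23 for OCT4, these counts were 471, 336 and 359, so that the order of SOX2 and OCT4 turned. At day 2 the log2 difference of ESRRB was below that of OCT4 at 1153 of 1285 enhancers (89.7%; all regions, 81.2%) and below that of SOX2 at 1073 (83.5%; all regions, 72.9%). At 16 h the order was another: OCT4 had dropped by a median of 0.49 on the log2 scale, SOX2 by 0.25 and ESRRB by 0.16, and ESRRB was below OCT4 in change at 159 enhancers (12.4%; all regions, 23.8%). At day 4 ESRRB was below SOX2 in change at 574 enhancers (44.7%, all regions 70.8%).

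By day 4 all 3 were low. OCT4 was 2-fold lower than before Dox at 863 enhancers (67.2%; all regions, 19.4%), SOX2 at 1034 (80.5%; all regions, 24.1%) and ESRRB at 1057 (82.3%; all regions, 25.2%). With a pseudocount 10 times larger ESRRB was 2-fold lower at 586. At the less accessible active enhancers the shares were 34.6% for OCT4, 47.5% for SOX2 and 60.8% for ESRRB.

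The SOX17 antibody gave signal at these enhancers before Gata6 was induced and less of it at day 4. Its median was 1.85 RPM before Dox (0.222 to 10.4), then 1.49, 1.25, 1.69, 1.66 and 0.898 RPM (0.0646 to 27.1) over the 5 times, and 0.666 RPM in XEN cells. Before Dox 821 enhancers (63.9%) had more than 2 times their input with this antibody, against 15.8% of all regions. Across the 1285 enhancers the signal before Dox ran with that of SOX2 (Spearman's rho 0.91, all regions 0.93). It also ran with OCT4 before Dox (rho 0.80, all regions 0.91) and with input before Dox (rho 0.71, all regions 0.83). It ran less with its own day 4 values (rho 0.35, all regions 0.34). The points of each correlation share region width and input, and the rho is a description. From before Dox to day 4 SOX17 was 2-fold lower at 584 enhancers (45.4%; all regions, 8.72%) and 2-fold higher at 221 (17.2%; all regions, 44.5%). With a pseudocount 10 times larger 117 were lower and 120 higher, and relative to the median change of all regions 833 were lower and 95 higher. At day 4 its values ran with those of GATA6 (rho 0.89; all regions, 0.93).

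The authors sorted GATA6 regions by their course and by SOX17 peaks, and the PTF signal at the enhancers was followed in the same classes. The transient course held 945 enhancers (73.5%, Wilson 95% interval 71.1 to 75.9; all regions, 38.4%), the early course 242 (18.8%; all regions, 28.0%) and the late course 98 (7.63%; all regions, 33.6%). These courses were drawn from the GATA6 values, and the SOX17 classes from SOX17 peaks, so neither factor is a comparison between them. A PTF peak before Dox was present at 1047 enhancers (81.5%; all regions, 20.8%), and 36 (2.80%; all regions, 16.6%) had a PTF peak only after induction. The share with a SOX17 peak was 44.5% at the enhancers and 44.5% over all regions. It was unevenly spread: 219 of 242 early enhancers (90.5%; all regions, 72.6%), 66 of 98 late ones (67.3%; all regions, 53.4%) and 287 of 945 transient ones (30.4%; all regions, 16.2%) had one.

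OCT4 at day 2 differed between these classes, and in the same order over all regions. At the 219 early enhancers with a SOX17 peak the OCT4 median was 5.62 RPM before Dox, 4.04 at 16 h, 6.17 at day 2 and 3.04 at day 4, with SOX17 at 3.33, 2.65, 6.46 and 5.45 RPM at these times. At the 287 transient enhancers with a SOX17 peak OCT4 went from 3.81 to 2.63, 3.28 and 1.20 RPM. At the 658 transient enhancers without one, which started from nearly the same OCT4 level, it went from 3.69 to 2.22, 2.03 and 0.698. By enhancer, OCT4 was 2-fold lower at day 2 at 6 of the 219 (2.74%), 13 of the 287 (4.53%) and 186 of the 658 (28.3%), against 0.417%, 2.81% and 13.8% of all regions in these classes. SOX2 was 2-fold lower at day 2 at 12, 47 and 269 of them (5.48%, 16.4% and 40.9%; all regions, 1.22%, 7.45% and 17.8%), and ESRRB at 90, 167 and 437 (41.1%, 58.2% and 66.4%; all regions, 6.84%, 24.8% and 23.5%). Width and input differ between the groups as well, with an input median before Dox of 1.20, 0.847 and 0.679 RPM, and their part in these differences was not tested.

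The 66 late enhancers with a SOX17 peak had less of the PTFs before Dox than the other classes described. Their OCT4 median was 1.05 RPM before Dox and 1.32 at day 4, SOX2 was 1.78 at day 4, and SOX17, whose peaks chose them, went from 0.915 to 3.47. ESRRB was 0.840 RPM there before Dox and 0.521 at day 4.

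**Figure D3:**
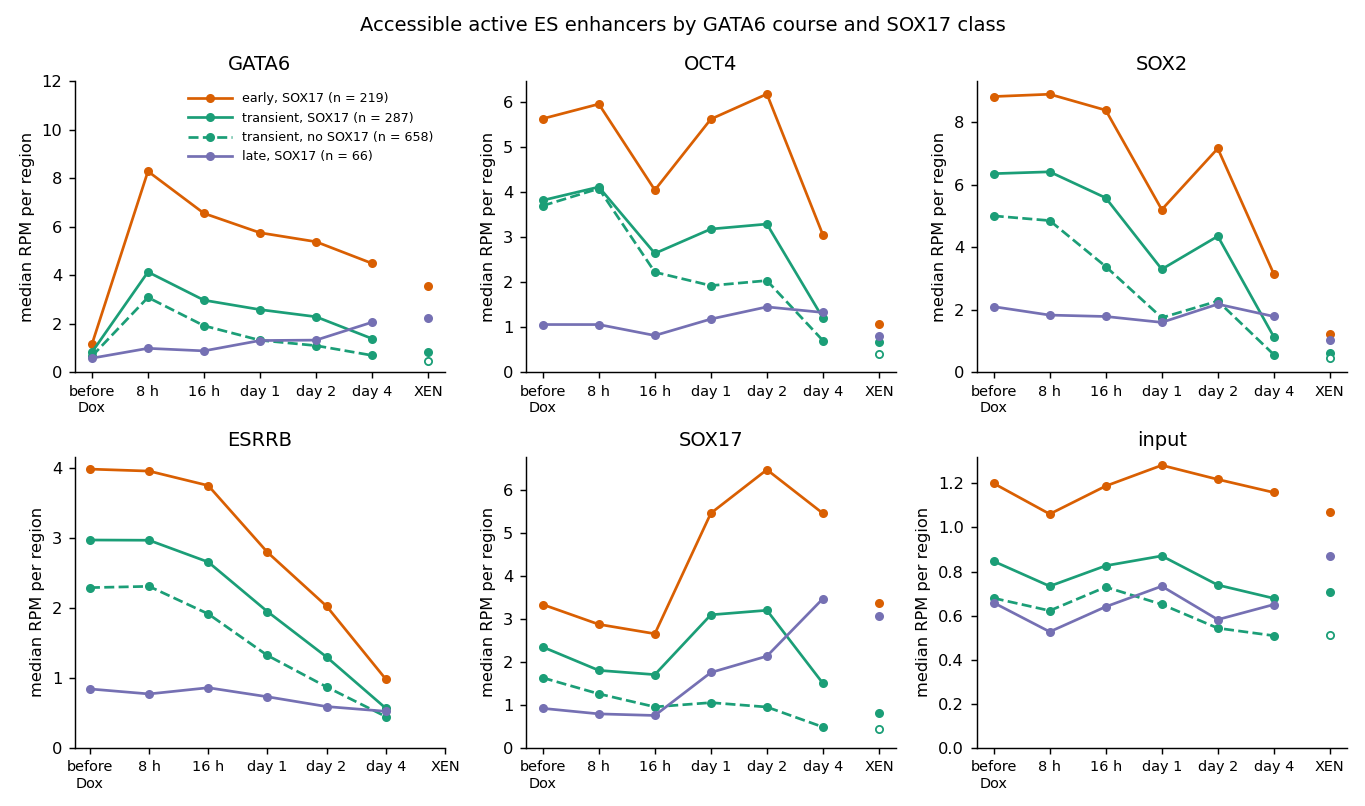
Median RPM at each time for accessible active ES enhancers grouped by the authors' GATA6 course and SOX17 class (n in the legend; groups of under 50 left out); the dashed line, and the open circle in XEN cells, are transient enhancers without SOX17. OCT4 at the early enhancers with SOX17 is 6.17 RPM at day 2, above its 5.62 before Dox, whereas it is 2.03 at day 2 at the transient enhancers without SOX17.

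GATA sequence was scarce at these enhancers. Of the windows of 300 bases around their summits, 274 (21.3%) held AGATAA or its reverse TTATCT, against 58.1% over all regions, 49.0% at less accessible active enhancers and 28.6% at accessible promoters. The octamer ATGCAAAT (reverse ATTTGCAT) was in 91 (7.08%; all regions, 3.72%), AAGGTCA (reverse TGACCTT) in 198 (15.4%; all regions, 9.73%) and CATTGT (reverse ACAATG) in 325 (25.3%; all regions, 27.9%). None of the 4 was in 572 windows (44.5%), against 25.1% over all regions. GC content was 49.7% at the median window and 45.7% over all regions. A window without these letters can hold another form of the motif, as the one near Plekha4 does. Its GATA6 match scored 10.7, against a median best score of 10.2 over all regions.

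**Figure D4:**
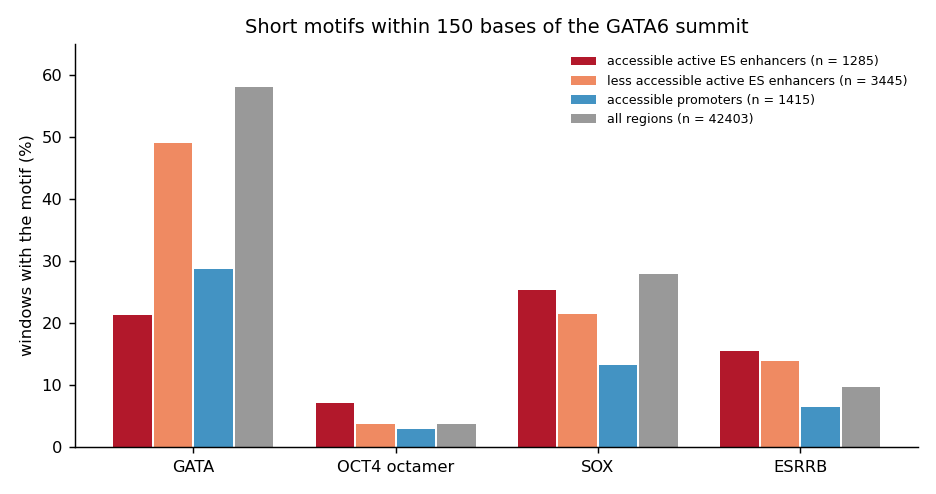
Share of 300-base windows centred on the GATA6 summit that hold each short motif on either strand (y axis, percent), for accessible active ES enhancers and 3 other sets of regions (n in the legend). The GATA string is in 21.3% of windows at the enhancers and in 58.1% over all regions, whereas the octamer is in 7.08% and 3.72%.

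The authors' motif scores cover the whole region. A GATA6 motif of the high or mid score class was present at 349 enhancers (27.2%, interval 24.8 to 29.7) and at 59.8% of all regions, and 321 enhancers (24.98%; all regions, 10.3%) had none. An OCT:SOX motif of these classes was present at 496 (38.6%, interval 36.0 to 41.3; all regions, 20.3%) and an ESRRB motif at 415 (32.3%; all regions, 22.5%), while SOX17 motifs were at 42.8% and 42.6%. The intervals cover counting of regions only. The best GATA6 match lay at a median of 116 bp from the GATA6 summit (939 enhancers with a full-length match), against 50 bp over all regions. The best OCT:SOX match was nearer, at 76.5 bp (1046 enhancers), against 119 bp over all regions.

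GATA6 at 8 h was ordered by its motif class at these enhancers. Its median was 7.45 RPM at the 107 enhancers of the high GATA6 motif class, 4.72 at 242 of the mid class, 3.69 at 615 of the low class and 2.19 at 321 with no match. Per kb of region the medians were 7.90, 6.23, 5.84 and 4.86 RPM. The span between motif classes was wider for the PTFs. All regions were chosen by a GATA6 peak and not by a PTF peak, so the spans cannot be compared on equal terms. OCT4 before Dox was 9.84 RPM per kb with a high OCT:SOX motif (245 enhancers) and 2.77 with none (239), and ESRRB before Dox was 9.90 RPM per kb with a high ESRRB motif (211) and 2.78 with none (678). Enhancers with a high OCT:SOX motif had larger log2 falls to day 4, from higher starting levels. OCT4 went from 6.95 to 1.06 RPM with a high motif and from 1.23 to 0.748 with none, and SOX2 from 8.21 to 0.729 and from 2.22 to 0.868 RPM. The median log2 differences were -2.52 for OCT4 and -3.05 for SOX2 with a high motif (all regions, -1.43 and -1.76), and -0.61 and -1.28 with none (all regions, 0.34 and 0.36). For GATA6 from 8 h to day 4 the differences were -1.94 with a high motif and -0.80 with none (all regions, -1.79 and 0.50).

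A protein-coding gene started within 100 kb of 1139 enhancers, and these were nearest to 982 genes, of which 117 had 2 or more. Enhancers are named by the nearest such start only, and which gene an enhancer acts on was not tested. Of 30 pluripotency regulators 14 were nearest to an enhancer, with 22 enhancers between them, and of 16 signalling responders 6 were, with 8 enhancers. Of 30 PrE genes, 0 were. Over all regions 29, 16 and 30 genes of these lists, in this order, were nearest to a region within 100 kb. They had 249, 113 and 276 such regions, and the enhancers make up 3.03% of all regions. Of the 22 enhancers near pluripotency regulators, 14 had the transient and 8 the early course. GATA6 was 2-fold lower at day 4 than at 8 h at 20 of them, against 70.1% of all 1285 enhancers and 34.8% of all regions. It was 2-fold higher at 0, against 4.36% of all 1285 enhancers and 30.9% of all regions. The OCT4 median of the 22 was 8.61 RPM before Dox, 6.62 at day 2 and 1.81 at day 4.

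The strongest of them by GATA6 at 8 h lay 67.3 kb from the start of Klf4, a zinc finger factor of naive pluripotency (ENSMUSG00000003032.8), at chr4:55463713-55465226. There GATA6 was 1.14 RPM before Dox, then 31.8, 16.2, 11.3, 8.78 and 5.01 RPM over the 5 times and 1.67 in XEN cells, and OCT4 fell from 14.0 before Dox to 9.51 at day 2 and 3.11 at day 4. The enhancer 24.5 kb from Il6st, which encodes the gp130 chain of the LIF receptor (ENSMUSG00000021756.12; chr13:112438775-112441096), had GATA6 at 27.2 RPM at 8 h and 8.25 at day 4, and SOX17 at 6.50 before Dox and 8.38 at day 4. In an intron 20.3 kb from Tfcp2l1, another naive pluripotency factor (chr1:118647898-118650515), GATA6 was higher at 16 h (31.0 RPM) than at 8 h (26.7) and was 6.62 at day 4. In the order Klf4, Il6st and Tfcp2l1, OCT4 was 9.51, 15.8 and 14.3 RPM at day 2 and 3.11, 6.07 and 3.79 RPM at day 4.

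Others near pluripotency genes had less GATA6 at day 4 than at 8 h. The enhancer 8.92 kb from Esrrb (chr12:86478498-86479568) had GATA6 at 9.40 RPM at 8 h, 11.3 at 16 h and 1.89 at day 4, and that 94.9 kb from Sox2 (chr3:34744837-34745769) had 14.7 at 8 h, 4.48 at day 4 and 0.573 in XEN cells. Near Klf2, a Kruppel-like factor, the enhancer 2.78 kb away had GATA6 at 11.0 RPM at 8 h and 2.49 at day 4, and OCT4 at 19.3 before Dox and 2.32 at day 4. Near Otx2, a homeobox factor of the primed state, GATA6 went from 19.0 at 8 h to 2.69 at day 4, and near Mycn, a MYC family proto-oncogene, from 16.1 to 2.14.

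Enhancers near the LIF pathway gene Socs3 and near Jarid2 had more SOX17 at day 4 than before Dox. The Socs3 enhancer, 5.60 kb from the start of this feedback inhibitor of STAT3 signalling (ENSMUSG00000053113.3; chr11:117974126-117975973), had GATA6 at 16.6 RPM at 8 h, 14.3 at day 4 and 10.0 in XEN cells, and SOX17 at 6.81 before Dox, 8.48 at day 2 and 16.8 at day 4. OCT4 was 7.26 RPM there before Dox and 7.11 at day 4, while ESRRB went from 13.9 to 2.22. At the Jarid2 enhancer, next to a subunit of Polycomb repressive complex 2, SOX17 was 3.91 RPM before Dox, 9.19 at day 2 and 5.02 at day 4. The Lifr enhancer, near the other chain of the LIF receptor, had GATA6 at 11.6 RPM at 8 h, 3.68 at 16 h and 3.99 at day 4, with OCT4 at 22.8 before Dox and 4.30 at day 4. Among the signalling responders the Tcf7l1 enhancer, near a repressor of the WNT pathway, had GATA6 at 14.9 RPM at 8 h and 4.39 at day 4, and the Etv4 enhancer, near an ETS factor that responds to FGF, had 5.89 and 3.35.

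**Figure D5:**
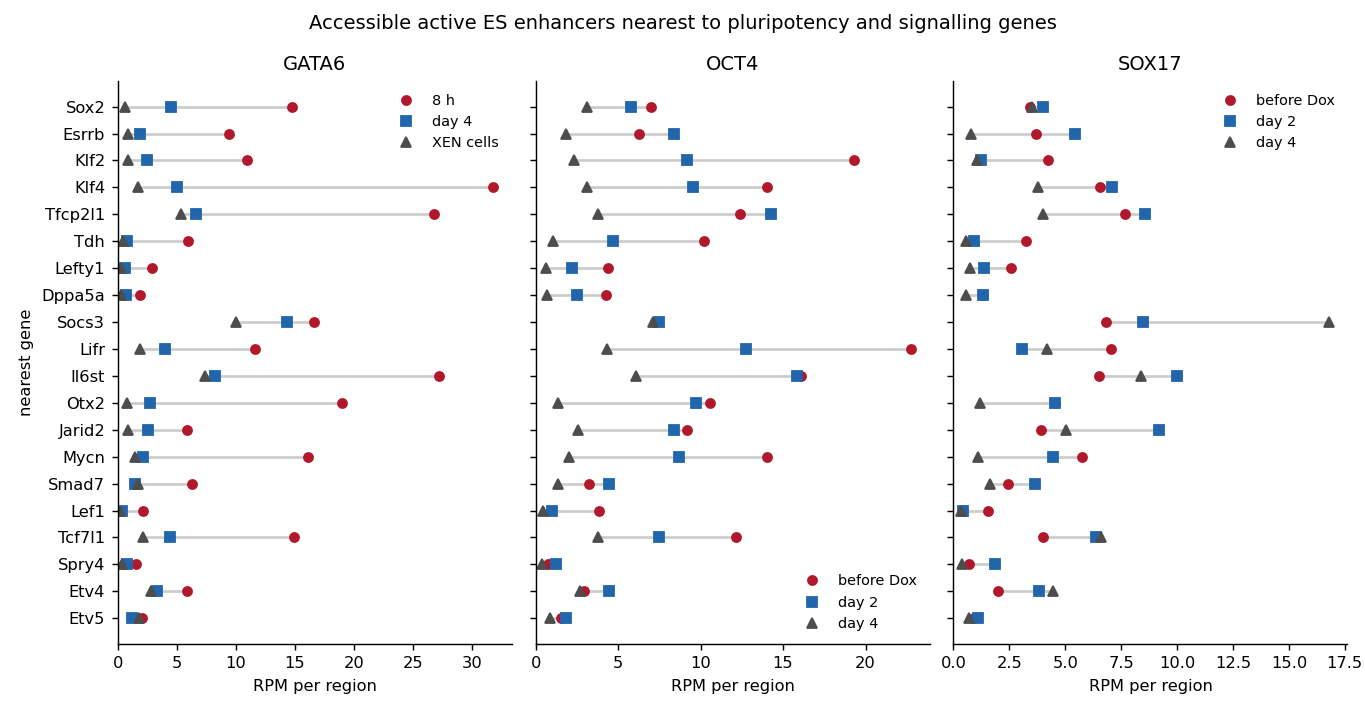
RPM of GATA6, OCT4 and SOX17 (x axes) at 3 conditions each, at the enhancer with the highest GATA6 at 8 h for each pluripotency or signalling gene that is nearest to at least 1 accessible active ES enhancer (y axis); grey lines span the 3 values. GATA6 is lower at day 4 than at 8 h at all 20, from 31.8 to 5.01 RPM near Klf4 and from 16.6 to 14.3 near Socs3, where SOX17 reaches 16.8 RPM at day 4.

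The highest GATA6 values at 8 h were at enhancers nearest to Plekha4 (41.0 RPM), Pcsk6 (40.2), Ccn2 (40.04), Rbpj (39.8) and Csrp1 (38.5), all of the early course and with SOX17 and PTF peaks. Ccn2 encodes a secreted matricellular growth factor, Rbpj the DNA-binding partner of Notch, and Pcsk6 a proprotein convertase. At day 4 they had 5.46, 6.54, 9.28, 3.21 and 13.0 RPM, each below its 8 h value. The Ccn2 and Rbpj enhancers (chr10:24590002-24591381 and chr5:53466332-53468241) were also among the 5 with the most OCT4 before Dox, with 26.8 and 25.7 RPM, next to Cnot2 (30.5), Stoml1 (25.9) and Nt5e (24.5). Their paths differed later: at Ccn2 OCT4 was 30.1 RPM at day 2 and 14.3 at day 4, and at Rbpj it was 16.4 and 2.96.

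The largest falls of GATA6 ended under 2 times the input of day 4. Nearest to Slc20a1, a phosphate transporter gene (chr2:129245628-129246583), GATA6 was 20.7, 10.1, 4.06, 3.23 and 0.953 RPM over the 5 times. That region lay 46.8 kb from the protein-coding start of Slc20a1 and within 1 kb of an annotated start site. Near Ptk2b it went from 13.3 to 0.574, near Rcor2, a corepressor gene, from 14.5 to 0.716, and near Gadd45a, a DNA damage response gene, from 15.7 to 0.816, and the fifth, on chromosome 18 with no gene start in reach, from 19.4 to 0.930. At Rcor2 GATA6 was already at 1.33 RPM at 16 h, and OCT4 there went from 19.7 at 8 h to 2.98 at 16 h.

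The largest rises of GATA6 were all within 1 kb of the start of a gene and all of the late course. They were at Ubald2 (0.232 RPM at 8 h and 2.90 at day 4), Raly (0.449 and 3.38), Per1, a core clock gene (0.687 and 4.15), Alyref2 (2.36 and 11.8) and Dact3 (0.702 and 3.64). The value at Ubald2 was the lowest GATA6 value of any enhancer at 8 h. Input was also higher at day 4 at each, in this order from 0.342 to 1.22, 0.317 to 1.70, 0.645 to 2.18, 1.51 to 1.84 and 0.500 to 1.89 RPM, and its part in these rises was not tested. SOX17 at the same sites, in this order, was 3.52, 3.39, 5.31, 9.06 and 5.03 RPM at day 4. SOX2 antibody signal at Alyref2 went from 9.83 before Dox to 31.8 at day 4.

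OCT4 was 2-fold higher at day 2 than before Dox at 32 enhancers (2.49%; all regions, 14.6%). The largest of these rises were near Gzmm, a granzyme gene (0.634 to 2.55 RPM), St5 (4.38 to 15.1), Raly (0.518 to 1.77), Amotl2, a regulator of Hippo signalling (4.36 to 12.6), and Atf6, a sensor of the unfolded protein response (7.49 to 20.1). At these 5 sites SOX17 was 8.67, 13.8, 2.52, 17.7 and 21.3 RPM at day 2, against 1.05, 2.32, 0.602, 3.62 and 4.32 before Dox. At St5 (chr7:109609704-109610600) OCT4 was still higher at day 4, at 21.7 RPM, while SOX2 went from 3.63 before Dox to 3.35 at day 2.

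Oct4 siRNA was used to ask what OCT4 contributes to binding 48 h after induction; OCT4 itself was not profiled in these cells, so the knockdown is not checked here. The GATA6 median at the enhancers was 1.24 RPM with control siRNA (0.0969 to 39.0) and 0.987 with Oct4 siRNA (0.0679 to 28.2), while over all regions it was 1.64 and 1.68. The control siRNA cells differed from day 2 of the time course. Their enhancer median was at percentile 40.6 of all regions, against 64.0 at day 2. It was above the other regions on 1 of 20 chromosomes, against 20 of 20 at day 2, and the cause was not tested. The median log2 difference per enhancer from control to Oct4 siRNA was -0.24 (quartiles -0.62 and 0.12). GATA6 was 2-fold lower at 101 enhancers (7.86%; all regions, 5.28%) and 2-fold higher at 11 (0.856%; all regions, 7.77%). With a pseudocount 10 times larger these counts were 5 and 0, and with one 10 times smaller 190 and 34. The difference was -0.36 at the 245 enhancers with a high OCT:SOX motif (all regions, -0.30) and -0.04 at the 239 with none (all regions, 0.09). Near Rbpj GATA6 was 7.33 RPM with control and 2.96 with Oct4 siRNA, and near Mycn 8.31 and 4.17, whereas near Il6st it was 17.5 and 18.3 and near Socs3 8.36 and 12.4.

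SOX17 was higher with Oct4 siRNA as deposited, but by less at the enhancers than over all regions. Its median at the enhancers was 0.910 RPM with control and 1.14 with Oct4 siRNA, and over all regions 0.812 and 1.29. It was 2-fold higher at 121 enhancers (9.42%; all regions, 20.8%) and 2-fold lower at 11 (0.856%; all regions, 0.441%). The median log2 difference was 0.32 at the enhancers and 0.52 over all regions; relative to that shift of all regions, 22 enhancers were 2-fold higher and 86 were 2-fold lower. At the 66 late enhancers with a SOX17 peak the difference was 0.86, and at the 287 transient ones 0.12. SOX17 peaks chose both groups, so these values describe each group and are no comparison between them.

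Neighbouring enhancers were also looked at by course. Grouping enhancers that lay close together gave 1217 loci, of which 62 held 2 or more enhancers and the largest 3, so that 130 enhancers (10.1%) had a neighbour. In 26 of the 62 loci (41.9%) more than 1 GATA6 course was present. No such share was worked out for enhancers that are not neighbours. The value therefore does not show whether neighbours share a course more often than others.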

How the data were processed

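ChIP-seq of 5 factors and input was analysed from a table of 42403 GATA6 regions. The authors trimmed reads with cutadapt, aligned them to mm10 with Bowtie2, removed duplicates by unique molecular identifiers, called peaks with MACS2 and counted reads per region. The deposited values are RPM, scaled to library size and pooled into 1 value per condition. Motif columns, made by the authors with FIMO, hold each region's top score, where that match lies and a class of score. Accessibility, histone, GATA6 course, SOX17 and PTF classes are also theirs. A further column holds their DESeq2 comparison between Oct4 and control siRNA and was not used, nor were 14 columns of values from other libraries.

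Members are the regions classed as active enhancer and accessible. The members and the gene lists were chosen with earlier results of these data known. Changes are differences of log2(RPM + pseudocount), with the pseudocount at percentile 5 of an assay's values (GATA6 0.193 RPM, OCT4 0.167, SOX2 0.195, ESRRB 0.164, SOX17 0.192), so that changes of low regions are understated. Regions past 1 on this scale were counted. Low values of 4 columns (GATA6 before Dox, OCT4 in XEN cells, ESRRB at 8 h, SOX17 at 16 h) were whole multiples of 1 read in 100% of cases, within 0.1 read. No count test was run, since each condition has 1 value. The other depths come from 36 columns with 2 steps; 5 columns could not be resolved.

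Nearest protein-coding genes and start sites came from GENCODE M21 on the GRCm38 assembly that mm10 names, and sequence from the RefSeq copy of that assembly. Regions named are, for each list gene nearest to a member within 100 kb, the member with the highest GATA6 at 8 h, and the 5 members with the highest GATA6 at 8 h, the largest rise and fall of GATA6 to day 4, the highest OCT4 before Dox and the largest rise of OCT4 to day 2; not all are described. The lists were 30 pluripotency regulators, 30 PrE genes and 16 signalling responders. Counting and depth steps were tested on simulated data. Alternatives were pseudocounts 10 times larger and smaller, input subtraction, centring on all regions, a filter on low values, members over 1 kb from a start site, 1 member per 12.5 kb locus, means, RPM per kb and the high motif class alone. Python 3.11.15, numpy 2.4.6, pandas 2.3.3 and scipy 1.17.1 were used.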

Additional observations from a re-analysis of the deposited data

How the results depend on the processing

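No paired analysis was possible because the libraries of a condition share 1 column, and for the same reason no library could be left out. Of 151 alternative counts and shares, 108 stayed within 1.5 times of the reported value. A pseudocount 10 times larger gave 671 enhancers with GATA6 higher at 8 h, 7 higher and 497 lower at day 4 than at 8 h, and 18 lower in XEN cells. It gave 0 with OCT4 and 0 with ESRRB lower at 8 h, 57 with OCT4, 85 with SOX2 and 256 with ESRRB lower at day 2, and 586 with ESRRB lower at day 4. For SOX17 it gave 120 higher and 117 lower at day 4, and with Oct4 siRNA 5 lower and 0 higher for GATA6 and 1 lower and 16 higher for SOX17. A pseudocount 10 times smaller gave 368 with GATA6 lower in XEN cells, 4 with OCT4 and 22 with ESRRB lower at 8 h, and with Oct4 siRNA 190 lower and 34 higher for GATA6 and 20 lower and 232 higher for SOX17. Subtracting input gave 468 with GATA6 lower in XEN cells and 7 with OCT4, 3 with SOX2 and 59 with ESRRB lower at 8 h. Relative to the median change of all regions, which was 1.38 on the log2 scale for GATA6 at 8 h, 0.23 for OCT4 and -0.28 for ESRRB at day 2, and 0.79 for SOX17 at day 4, GATA6 was higher at 8 h at 466, ESRRB lower at 8 h at 15, OCT4 and ESRRB lower at day 2 at 359 and 471, and SOX17 higher at day 4 at 95. With Oct4 siRNA SOX17 was then lower at 86 and higher at 22. Among regions past the filter on low values, which takes the higher value of both conditions and so favours changes, GATA6 was higher at day 4 at 32 and lower in XEN cells at 90, and with Oct4 siRNA 39 were lower and 7 higher for GATA6 and 4 lower for SOX17. Away from start sites GATA6 was higher at day 4 at 23, and with 1 enhancer per locus OCT4 was lower at 8 h at 0. Subtracting the lowest value of each column, chosen after seeing the data, gave 20 with ESRRB lower at 8 h. With the high class alone, 19.1% of enhancers had an OCT:SOX motif. Where the larger pseudocount or the construction of the alternative does not account for a difference, the cause was not tested.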
